A study of Mus musculus with 2 samples.

Results

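The genes described here are 36 cell cycle genes, taken by symbol from a fixed list and all found among the 32285 genes of both libraries. By role, 22 of them act in mitosis, 13 act in DNA replication, and Stmn1, which encodes a tubulin-binding protein, stands apart. They were measured in single cells of the optic nerve of Nf1-OPG mice, a model of low-grade optic glioma. These mice are Nf1flox/neo; GFAP-Cre animals: 1 Nf1 allele carries a neomycin cassette in exon 31 in every cell, and the other is deleted by Cre under the GFAP promoter in neuroglial progenitors. The vancomycin library came from mice given this antibiotic between 6 and 12 weeks of age, and the control library from mice that received PBS over that time, per the series' design. Both groups share the genotype, and each is 1 library of 10 pooled mice harvested at 12 weeks. The protocols describe both optic nerve, with removal of myelin, and meningeal dura, and the tissue label of both libraries is optic nerve. The title of the control library carries the tags FMC and ON, which the vancomycin title lacks, so a difference in tissue or preparation cannot be told apart from the treatment in any comparison of the libraries.

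With 1 library a group there is no replicate check and no test. All intervals below are exact 95% intervals that cover counting error only, and the differences are between these 2 libraries and not between treatments.

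A dividing cell copies its DNA in S phase and segregates the copies in mitosis. Before S phase the MCM complex, the replicative helicase, is loaded on origins, and the clamp PCNA, the GINS complex and the enzymes that supply nucleotides work at the forks. Toward mitosis, CDK1 with its cyclins, the Aurora and Polo kinases, kinetochore proteins and spindle motors are made, and most are destroyed again when the cell divides. E2F factors drive many S phase genes, whereas the DREAM and MuvB complexes act on mitotic genes through CHR elements in their promoters. In the adult optic nerve, oligodendrocyte precursor cells are known to divide, while mature oligodendrocytes are not, and in inflamed tissue activated T cells are a common dividing population.

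The vancomycin library held 16596 cell barcodes with 144451114 unique molecular identifiers (UMIs), and the control library 4272 barcodes with 25609899 UMIs. After removal of shallow or damaged cells, 15726 and 4108 cells remained, with a median of 6970 UMIs per cell with vancomycin and 4870.5 UMIs per cell in the control. The libraries differed in makeup: cells passing the oligodendrocyte marker gate were 29.3% of the vancomycin library, and none of 4108 cells passed it in the control. T cell-gated cells were 21.8% of the vancomycin cells and 41.5% of the control cells, and microglia-gated cells 7.5% and 25.4%. The libraries shared 100 barcodes, of which 1 belonged to a cycling cell in each library.

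Cells were called cycling when Mki67, Top2a, Cdk1 and Birc5 together had at least 5 UMIs. Mki67 encodes the proliferation antigen Ki-67, Top2a a topoisomerase that untangles chromosomes, Cdk1 the mitotic kinase and Birc5 survivin, a subunit of the chromosomal passenger complex. The call found 345 cycling cells with vancomycin (2.19%, interval 1.97 to 2.43%) and 67 in the control (1.63%, interval 1.27 to 2.07%). Just outside the threshold, at 4 UMIs, were 30 vancomycin and 11 control cells, and just inside, at 5 UMIs, 17 and 6 cells. The higher share with vancomycin was seen at full depth only. With each cell thinned to 2000 UMIs, which left out 1855 vancomycin and 912 control cells as shallower, cycling cells were 0.728% (0.593 to 0.884%) with vancomycin and 1.0% (0.686 to 1.41%) in the control, with overlapping intervals, as at full depth. Thinning and the loss of the shallower cells were not told apart. The full-depth gap between the libraries also depended on the denominator: without the oligodendrocyte-gated cells the vancomycin share was 2.95% (2.65 to 3.28%), against 1.63% in the control. This wider gap holds at full depth and was not compared at equal depth. After thinning, oligodendrocyte-gated cells were 4014 of the 13871 vancomycin cells and held 1 of the 101 cycling ones.

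The makeup of the cycling cells differed between the libraries at full depth. T cell-gated cells made up 117 of the 345 cycling cells with vancomycin (33.9%, interval 28.9 to 39.2%) and 49 of the 67 in the control (73.1%, interval 60.9 to 83.2%). With each cell thinned to 2000 UMIs the difference was smaller and the intervals overlapped, at 52 of 101 cycling cells with vancomycin (51.5%, 41.3 to 61.6%) and 23 of 32 in the control (71.9%, 53.3 to 86.3%). Type 1 dendritic cell-gated cells, which present antigen to CD8 T cells, were 51 (14.8%) with vancomycin and 2 (2.99%) in the control. Plasma cell-gated cells were 42 with vancomycin and 2 in the control, oligodendrocyte precursor cell-gated cells 30 and 2, type 2 dendritic cell-gated cells 15 and 2, and microglia-gated cells 12 and 3. B cell-gated cycling cells numbered 14 with vancomycin and 0 in the control, and 35 and 6 cycling cells passed no gate. The classes themselves differed in size, with 364 type 1 dendritic cell-gated, 335 B cell-gated and 990 oligodendrocyte precursor cell-gated cells in the vancomycin library, against 8, 26 and 50 in the control.

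**Figure D1:**
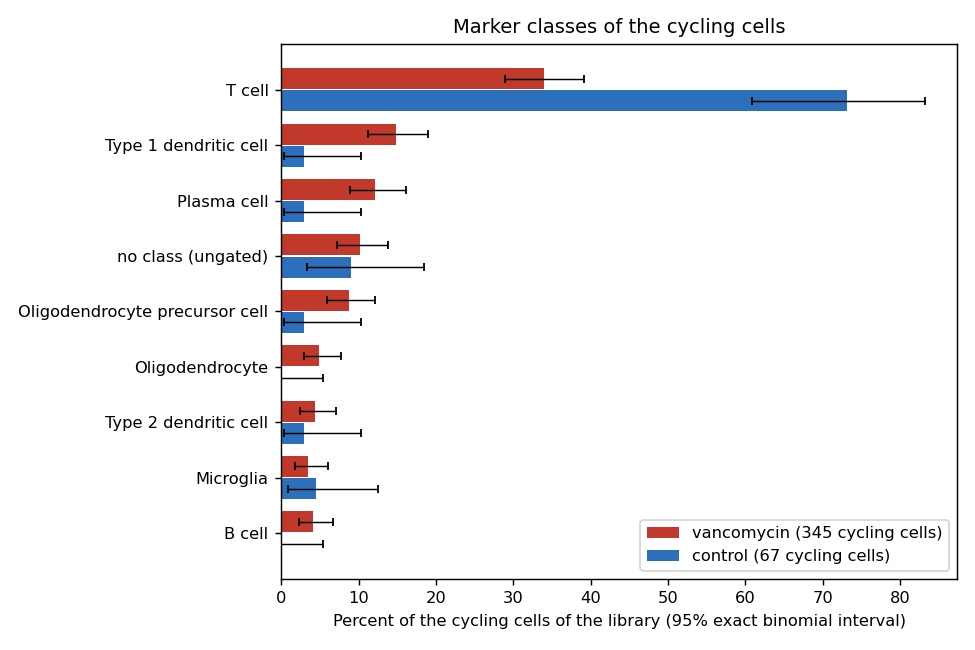
Marker classes of the cycling cells, as a percent of the cycling cells of each library, for the classes with at least 5 cycling cells over both libraries. Bars are vancomycin above control, and lines are exact 95% binomial intervals; T cell-gated cells took 33.9% of the vancomycin and 73.1% of the control cycling cells, with intervals that do not overlap at full depth and do overlap after thinning to 2000 UMIs (51.5% and 71.9%).

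Within each class with at least 50 cells in both libraries, the intervals of the cycling shares overlapped. Among T cell-gated cells the share was 3.41% (2.83 to 4.08%) of 3428 with vancomycin and 2.88% (2.14 to 3.79%) of 1703 in the control, and after thinning 1.60% and 1.43%. T cells with Cd8a or Cd8b1 and no Cd4 were cycling in 3.77% of cells with vancomycin and 3.38% in the control. T cells with Cd4 and no Cd8 had 4.28% (3.19 to 5.61%) with vancomycin and 2.14% (1.11 to 3.71%) in the control, and 2.08% against 0.743% after thinning, with overlapping intervals both ways. Microglia-gated cells were cycling in 12 of 1180 cells with vancomycin (1.0%, 0.527 to 1.77%) and in 3 of 1042 in the control (0.288%, 0.0594 to 0.839%), and after thinning in 0.275% and 0.247%. Plasma cell-gated cells were cycling in 4.56% of 921 with vancomycin and in 2 of 105 in the control. They were deep, at a median of 22674 UMIs with vancomycin and 24906 UMIs in the control. After thinning 0.662% of 907 were cycling with vancomycin, below the T cell-gated share of 1.60%, and 1 of 97 in the control.

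Type 1 dendritic cell-gated cells had the highest share among classes of at least 50 cells, with 51 of 364 cycling with vancomycin (14%, interval 10.6 to 18%), against 2 of 8 in the control. Their depth was also high, at a median of 15208.5 UMIs in the vancomycin library, and after thinning 3.05% of them were cycling. Oligodendrocyte precursor cell-gated cells were cycling in 3.03% of 990 with vancomycin, and in 2 of 50 in the control. After thinning the counts were 0.942% of 955 with vancomycin and 2 of 49 in the control. No cycling cell was found among 157 astrocyte-gated cells with vancomycin and 60 in the control, which allows shares of up to 1.91% with vancomycin and 5% in the control by a count of 3 over the cells, and by the exact interval up to 2.32% and 5.96%. Among NK cell-gated cells there were none of 74 with vancomycin and none of 64 in the control, which allows up to 4.05% and 4.69% by a count of 3, and up to 4.86% and 5.60% by the exact interval.

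**Figure D2:**
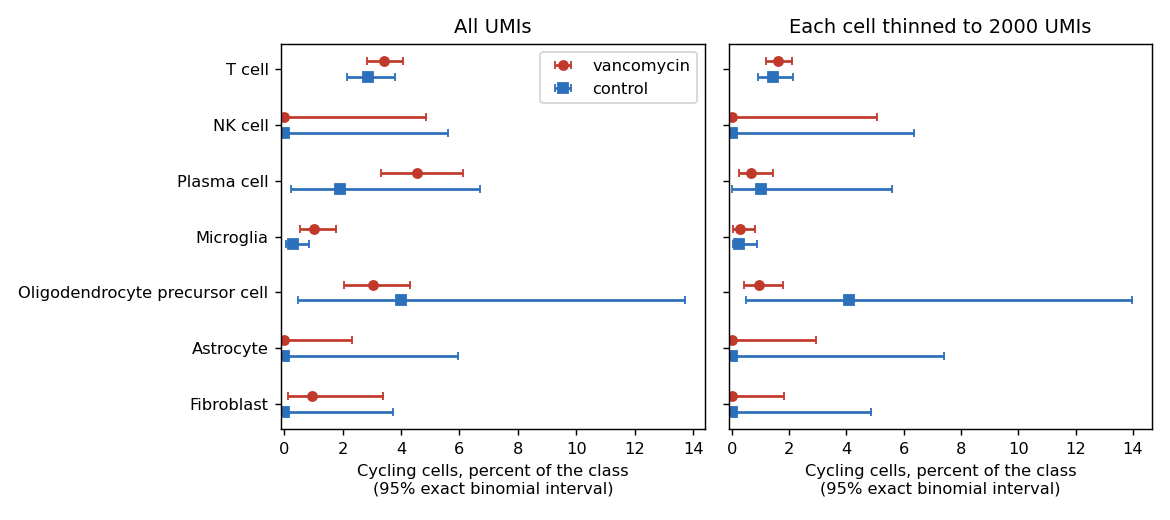
Cycling cells as a percent of each marker class with at least 50 kept cells in both libraries, from all UMIs (left) and with each cell thinned to 2000 UMIs (right). Circles are vancomycin, squares control, lines exact 95% binomial intervals; the T cell-gated shares were 3.41% and 2.88%, and the intervals of the libraries overlap in each class.

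Some cycling cells carried markers of more than 1 family. Of the 17 oligodendrocyte-gated cycling cells of the vancomycin library, 14 (82.4%) had a UMI of at least 3 markers of another family, against 14.6% of the oligodendrocyte-gated cells that were not cycling, and their median depth was 27918 UMIs, against 9711. Among plasma cell-gated cells of that library the shares were 59.5% of 42 cycling cells and 29.4% of the others. In cycling T cell-gated cells such cells were 10.3% with vancomycin and 14.3% in the control, against 6.16% and 3.14% of the T cell-gated cells that were not cycling. A Scrublet doublet score above 0.2 was found in 13 cycling vancomycin cells (3.77%) and in 0 cycling control cells, beside 3.25% of all kept vancomycin cells and 1.27% of all kept control cells. The 51 cycling type 1 dendritic cell-gated cells of the vancomycin library had no UMI of the T cell markers, but a UMI of the microglia markers in 50 cells, of the plasma cell markers in 31 and of the oligodendrocyte markers in 26. Of the 313 that were not cycling, 286, 184 and 169 had a UMI of these 3 marker lists. At least 3 markers of another family had a UMI in 13.7% of the cycling and 10.2% of the other type 1 dendritic cell-gated cells. The microglia markers summed to 385 CPM in these cells and to 257 CPM in the type 1 dendritic cell-gated cells that were not cycling. Without cells of mixed markers the cycling share was 1.92% with vancomycin, and T cell-gated cells were 39.6% of those cycling cells.

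Levels are given as UMIs of a gene per 1000000 UMIs of the cells summed (CPM), and ratios as log2 of vancomycin over control after 10 CPM were added to both. Over all kept cells, 1 of the 36 genes was 2-fold or more higher with vancomycin, beside 6.95% of the 17554 genes with at least 50 UMIs, and 1 was 2-fold or more lower, beside 4.01% of them. Neither count stands above its background. The higher one was Stmn1 (ENSMUSG00000028832, chromosome 4, 134468320 to 134473843, plus strand; build mm10), at 301 CPM with vancomycin and 52.5 CPM in the control (log2 ratio 2.32). The lower one was Mcm6 (ENSMUSG00000026355, chromosome 1, 128331590 to 128359664, minus strand), a helicase subunit, at 30.9 CPM with vancomycin and 76.5 CPM in the control (log2 ratio -1.08). The Mcm6 difference was -0.65 on that scale without the oligodendrocyte-gated cells. The median log2 ratio was -0.06 for mitosis genes and -0.22 for replication genes, against 0.04 for all genes. Of the 36 genes 15 were above a log2 ratio of 0, where 56.9% of all genes lay, and 21 below, where 43.1% lay. With the same weight for each class of 50 or more cells in both libraries, which leaves out oligodendrocyte-gated cells, 24 were above and 12 below.

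The Stmn1 difference lay in the oligodendrocyte-gated cells. Outside the cycling cells these held 94.6% of the Stmn1 UMIs of the vancomycin library, at 749 CPM, and the control held no such cells. Without them Stmn1 was at 51.2 CPM with vancomycin and 52.5 CPM in the control (log2 ratio -0.03). In T cell-gated cells below the cycling threshold it was at 19.8 CPM with vancomycin and 21.7 CPM in the control, and in microglia-gated cells at 22.6 and 23.0 CPM. Fewer cells of a type and less RNA per cell cannot be told apart in such sums over all cells.

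In the summed UMIs of the cycling cells, the members as a group were somewhat lower with vancomycin. Of the 36 genes, 10 were above a log2 ratio of 0, beside 52% of all genes, and 26 below, beside 48%. With every cell weighted equally 14 were above and 22 below. None was 2-fold or more higher, beside 5.86% of the 10544 genes measured there, and 1 was 2-fold or more lower, beside 3.71%. The 36 include the 4 genes of the cycling call, which chose these cells, and the 1 lower gene is among those 4. Of the 32 others, 0 were 2-fold or more higher and 0 lower, 8 lay above a log2 ratio of 0 and 24 below. The median log2 ratio was -0.28 for mitosis genes and -0.40 for replication genes, against 0.03 for all genes. It was also -0.28 for the 18 mitosis genes that the cycling call does not use. With every cell weighted equally the median was -0.02 for mitosis genes and -0.37 for replication genes, so the mitosis difference depended on the weighting. The cycling cells had a median depth of 18871 UMIs with vancomycin and 15477 UMIs in the control. The threshold is a fixed count of UMIs, and the part of depth in these levels was not tested. The exact interval of the ratio lay below 1 for 21 of the 36 genes, above 1 for 4 and included 1 for 11, where 23.3% of all genes lay below and 23.4% above. Of the 32 genes outside the cycling call it lay below 1 for 19, above 1 for 3 and included 1 for 10.

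Mki67 (ENSMUSG00000031004, chromosome 7, 135689784 to 135716361, minus strand) was the gene more than 2-fold lower. It had 3329 UMIs or 451 CPM in the 345 cycling vancomycin cells and 1254 UMIs or 1128 CPM in the 67 cycling control cells. The ratio was 0.400 (0.374 to 0.427) and the log2 ratio -1.30. It made up 30.1% of the UMIs of the 4 threshold genes with vancomycin and 48.3% in the control. Because these 4 genes chose the cells, their levels are a description. In cycling T cell-gated cells alone Mki67 was at 629 CPM with vancomycin and 1224 CPM in the control (log2 ratio -0.95). The median T cell-gated cycling cell had 9 Mki67 UMIs with vancomycin, from 0 to 38, and 11 in the control, from 0 to 67. The ranges of the cells overlapped widely.

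The other threshold genes differed less. Top2a was at 521 CPM with vancomycin and 755 CPM in the control (log2 ratio -0.53). Cdk1 was at 207 and 148 CPM, the highest log2 ratio of the mitosis genes at 0.46, and Birc5 at 319 and 304 CPM, with an interval that included 1. In cycling T cell-gated cells the log2 ratios were -0.26 for Top2a, 0.52 for Cdk1 and 0.16 for Birc5.

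Among the cyclins, Ccnb1, the cyclin B1 partner of CDK1, was at 89.1 CPM with vancomycin and 62.1 CPM in the control (log2 ratio 0.46), Ccnb2 at 165 and 173 CPM, and Ccna2, cyclin A2, which acts from S phase on, at 161 and 247 CPM (log2 ratio -0.59). For the mitotic kinases, Aurka, which acts at spindle poles, was at 48.2 CPM with vancomycin and 36.9 CPM in the control (log2 ratio 0.31), Aurkb, the kinase of the passenger complex, at 109 and 111 CPM, and Plk1 at 74.1 and 64.8 CPM. The intervals of all 3 kinases included a ratio of 1. The checkpoint kinase Bub1 was at 35.5 CPM with vancomycin and 52.2 CPM in the control, and Bub1b, its relative in the checkpoint complex, at 57.0 and 59.4 CPM.

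At the centromere, Cenpf was at 184 CPM with vancomycin and 293 CPM in the control (log2 ratio -0.65), the lowest log2 ratio of mitosis genes outside the threshold. Cenpe, a kinetochore motor, was at 117 CPM with vancomycin and 179 CPM in the control, and Cenpa, the centromeric histone H3 variant, at 207 and 271 CPM. Of the spindle and midzone genes, Kif23, a motor of cytokinesis, was at 92.0 CPM with vancomycin and 143 CPM in the control (log2 ratio -0.59). Prc1, which bundles midzone microtubules, was at 141 CPM in both libraries. Kif11, the motor that separates the poles, was at 141 and 198 CPM, and Kif20a, Tpx2 and Nusap1 had log2 ratios from -0.38 to -0.24. Ube2c, the ubiquitin-conjugating enzyme of the anaphase-promoting complex, was at 387 CPM with vancomycin and 345 CPM in the control.

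All 6 genes of the MCM helicase were lower with vancomycin in cycling cells, where 48% of all genes were lower. The direction was the same with TMM or DESeq2 factors, with every cell weighted equally and in T cell-gated cells alone. In the T cell-gated cells Mcm7 differed little, at 168 CPM with vancomycin and 181 CPM in the control. The lowest log2 ratios of the replication genes were those of Mcm6, at 196 CPM with vancomycin and 370 CPM in the control (-0.88), and Mcm4, at 113 and 197 CPM (-0.76). Mcm2, Mcm3, Mcm5 and Mcm7 had log2 ratios from -0.60 to -0.34. Of the nucleotide enzymes, Rrm1, the large subunit of ribonucleotide reductase, was at 151 CPM with vancomycin and 246 CPM in the control (-0.67), and Rrm2, its small subunit, at 252 and 336 CPM (-0.40). The thymidine enzymes pointed the other way: Tk1 was at 142 CPM with vancomycin and 115 CPM in the control (0.28), and Tyms, thymidylate synthase, at 161 and 136 CPM (0.23), with an interval that included a ratio of 1. Pcna was at 219 CPM with vancomycin and 269 CPM in the control, its partner Pclaf at 505 and 490 CPM, and the GINS subunit Gins2 at 50.1 and 46.8 CPM.

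T cell-gated cells allow the comparison within 1 marker class, which still differed in its subsets. Of the 117 cycling ones with vancomycin, 51 had Cd8a or Cd8b1 without Cd4 and 50 the reverse, against 29 and 12 of 49 in the control. The part of this makeup in the levels was not tested. In the cycling T cell-gated cells 0 of the 36 genes were 2-fold or more higher, beside 3.91% of 6604 genes, and 0 were 2-fold or more lower, beside 2.86%. The exact interval of the ratio lay above 1 for 6 of the 36, beside 17.7% of all genes, and below 1 for 15, beside 19.8%. Above a log2 ratio of 0 were 14 genes, beside 48.8%, and below it 22, beside 51.2%. Of the 32 genes outside the cycling call, 12 were above and 20 below, with intervals above 1 for 5 and below 1 for 13. The median log2 ratio was -0.11 for mitosis genes and -0.32 for replication genes, against -0.02 for all genes. Mcm6 was at 303 CPM with vancomycin and 413 CPM in the control, Mcm4 at 145 and 228 CPM, Kif23 at 88.6 and 155 CPM, Ccnb1 at 106 and 75.6 CPM, and Tyms at 227 and 147 CPM (log2 ratio 0.59). Stmn1, which binds tubulin and is known to be high in dividing lymphocytes, was at 491 CPM with vancomycin and 862 CPM in the control (log2 ratio -0.80). It was at 377 and 710 CPM over all cycling cells, so it was lower with vancomycin there and higher over all kept cells, where it too was lower (-0.24) with equal class weights.

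**Figure D3:**
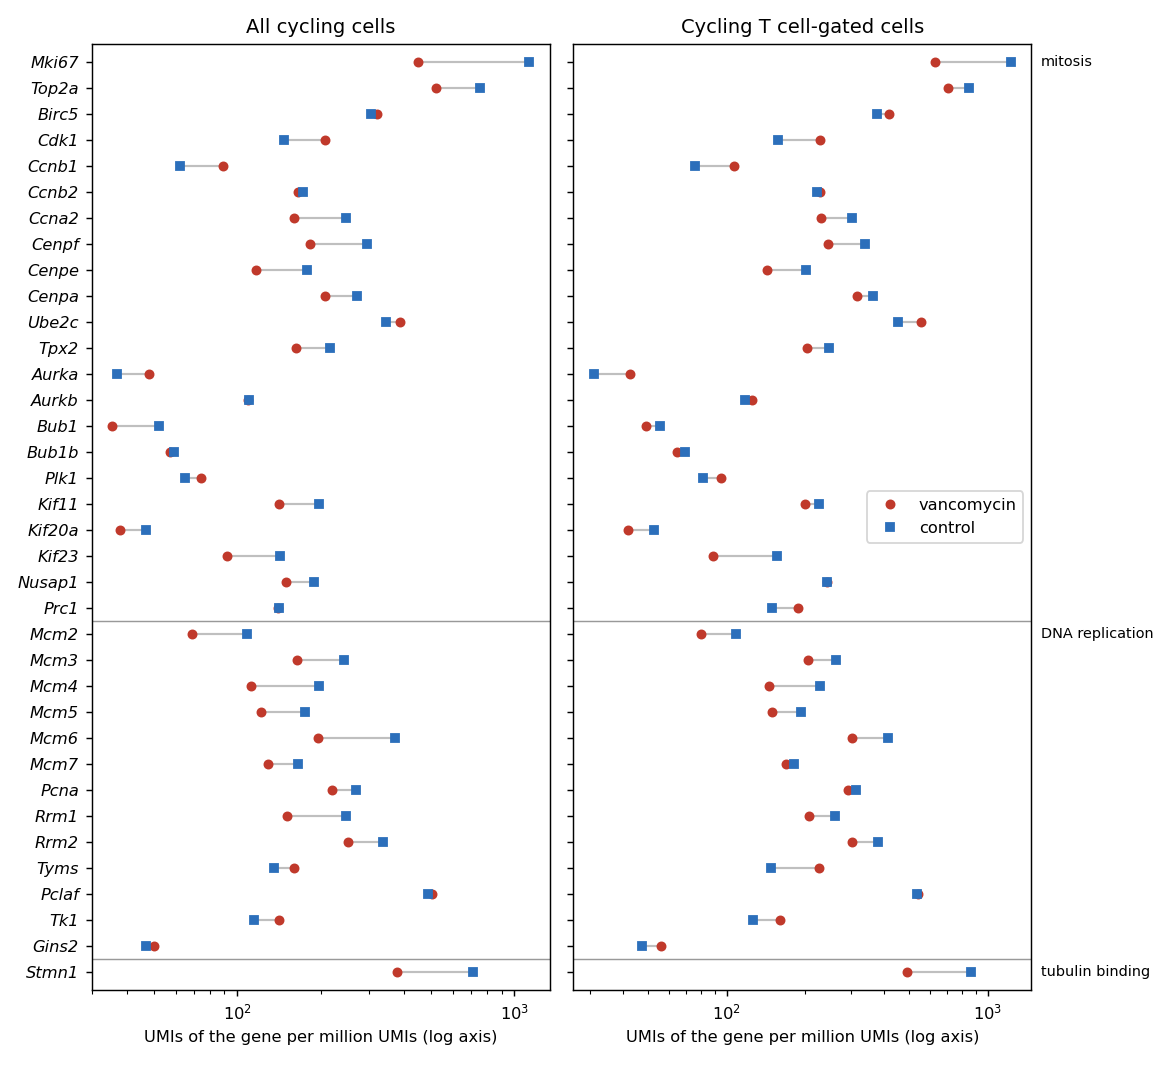
CPM of each gene (log axis) in all cycling cells (left) and in cycling T cell-gated cells (right), with genes ordered by role. Circles are vancomycin and squares control, joined by a grey line; Mki67 was at 451 and 1128 CPM in all cycling cells, and the 6 MCM genes lay lower with vancomycin in both panels.

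Mitosis and replication genes differed in how much of their RNA lay in the cycling cells. A median of 84.5% of a mitosis gene's UMIs with vancomycin and 82.9% in the control came from cycling cells, against 32.5% and 30.2% for a replication gene. The same contrast as a level gave a median of 99.3-fold with vancomycin and 105-fold in the control for mitosis genes, cycling cells over all other cells, and 8.79-fold and 9.36-fold for replication genes. This contrast is a description, since all 4 threshold genes are mitosis genes and a cell with replication RNA alone falls below the threshold. The 18 mitosis genes outside the threshold, with medians of 85.3% with vancomycin and 82.9% in the control, are not independent of that choice. Pcna was the replication gene least tied to cycling cells, with 17.7% of its UMIs there with vancomycin and 15.8% in the control. Pclaf, Rrm2 and Tk1 behaved like mitosis genes in this measure, with 93.9%, 90.5% and 75.3% in vancomycin cycling cells and 91.6%, 80.1% and 67.4% in control cycling cells.

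Cenpa and Kif23 were the mitosis genes least tied to the cycling cells in the control. With vancomycin 54.8% of Cenpa UMIs and 66.1% of Kif23 UMIs came from cycling cells, and in the control 27.6% and 33.7%. Below the threshold Cenpa was at 9.34 CPM with vancomycin and 32.9 CPM in the control (log2 ratio -1.15), and Kif23 at 2.58 and 13 CPM (-0.87). T cell-gated cells held 53.4% of these Cenpa UMIs with vancomycin and 68.1% in the control, and 53.2% and 78.9% of the Kif23 UMIs. Within T cell-gated cells below the threshold the difference was smaller, with Cenpa at 42.3 CPM with vancomycin and 57.7 CPM in the control and Kif23 at 11.6 and 26.4 CPM. In microglia-gated cells Cenpa was at 3.17 CPM with vancomycin and 13.2 CPM in the control.

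Over all cells below the threshold, 1 member was 2-fold or more higher, Stmn1, beside 7.19% of 17382 genes, and 2 were 2-fold or more lower, Cenpa and Mcm6, beside 4.23%. Bub1, with 13 and 3 UMIs, was the 1 member with fewer than 50 UMIs there. Mcm6 was at 21.8 CPM with vancomycin and 62.9 CPM in the control, and T cell-gated cells held 48.6% and 81.9% of those UMIs. T cell-gated cells were 21.5% of the vancomycin and 40.9% of the control cells below the threshold, and the part of this makeup in the ratio was not tested beyond the values within classes. In T cell-gated cells below the threshold 0 members were 2-fold or more higher, beside 2.22% of 11144 genes, and 0 were 2-fold or more lower, beside 1.17%. Of the 36 members, 25 had at least 50 UMIs there, as all of the 11144 genes had. There Mcm6 was at 89.9 CPM with vancomycin and 132 CPM in the control, Rrm1 at 25.3 and 50.8 CPM, and Tyms at 18.3 and 12.6 CPM. In microglia-gated cells below the threshold 0 members were 2-fold or more higher, beside 2.28% of 10301 genes, and 0 were 2-fold or more lower, beside 2.08%. Of the 36 members, 13 had at least 50 UMIs there, 2 of them mitosis genes. The added 10 CPM also pulls ratios of low levels toward no difference, so the counts of 0 in these classes do not show equal levels. In the microglia-gated cells Mcm6 was at 9.52 CPM with vancomycin and 7.88 CPM in the control, Mcm3 at 47.2 and 55.4 CPM and Pcna at 57.4 and 70.6 CPM. Pcna was at 65.2 CPM with vancomycin and 81.8 CPM in the control in T cell-gated cells, so its levels in these classes lay closer together than those of Mcm6.

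**Figure D4:**
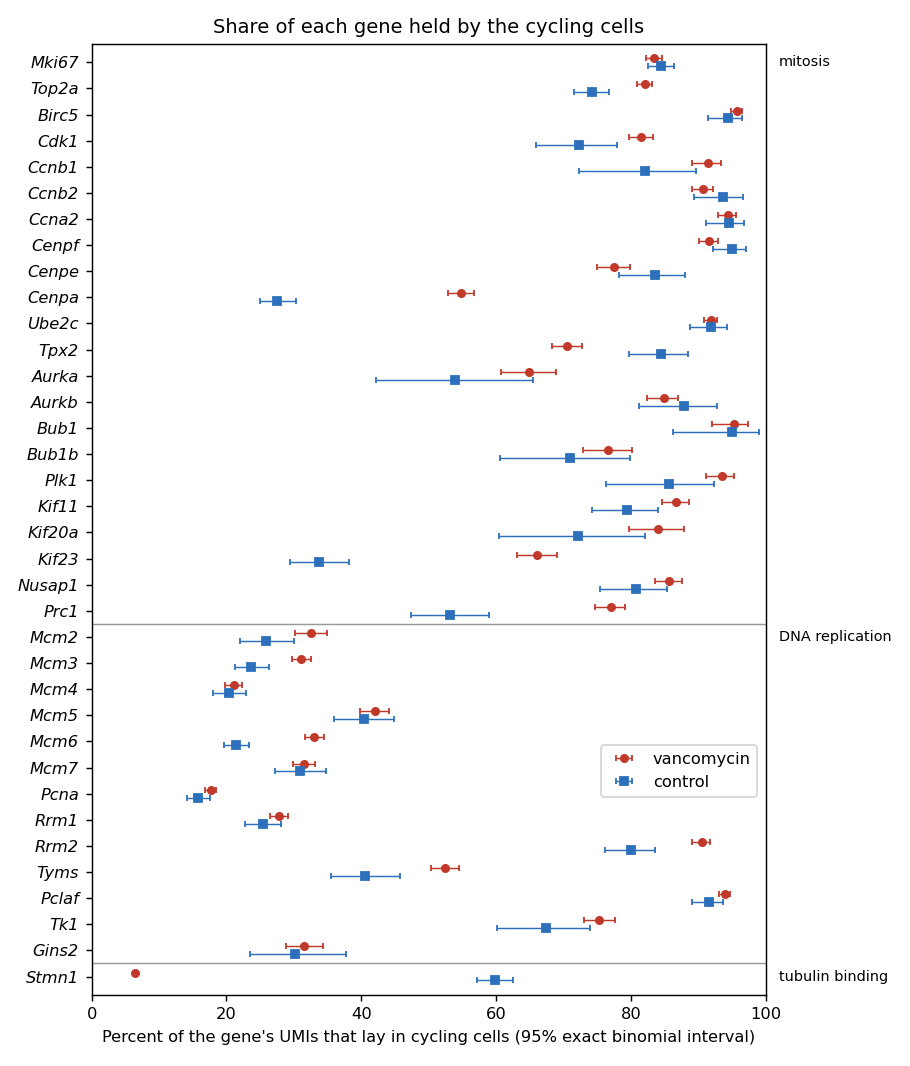
Percent of the UMIs of each gene that lay in cycling cells, with exact 95% binomial intervals, for vancomycin (circles) and control (squares). Mitosis genes had a median of 84.5% and 82.9%, replication genes 32.5% and 30.2%, and Stmn1 6.51% with vancomycin and 59.9% in the control.

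Cells below the threshold with at least 5 UMIs of the 13 replication genes were counted too, as cells may copy DNA before mitotic RNA accumulates. Among T cell-gated cells they were 5.71% (4.94 to 6.55%) with vancomycin and 15.1% (13.4 to 16.9%) in the control, with a median depth of 3986 and 5209 UMIs. After thinning the shares were 0.607% (0.366 to 0.946%) with vancomycin and 0.965% (0.541 to 1.59%) in the control, with overlapping intervals. The share was 21.1% among type 1 dendritic cell-gated cells of the vancomycin library and 2.26% after thinning. Microglia-gated cells had 4.2% with vancomycin and 5.0% in the control. Oligodendrocyte-gated cells of the vancomycin library, a type not known to divide when mature, had 9.16% at full depth and 0.025% after thinning. The full-depth count can therefore not be read as a count of cells that copy DNA.

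In the cycling cells together, the 13 replication genes had 16785 UMIs and the 18 mitosis genes outside the threshold 17426 UMIs with vancomycin, a ratio of 0.963 (0.943 to 0.984). The control had 3225 and 3144 UMIs, a ratio of 1.03 (0.976 to 1.08). The log2 difference of the ratios was -0.09, with an interval of -0.168 to -0.0136. This interval covers the counting error of the summed UMIs and leaves out the wide spread between cells, so it does not show a difference between the libraries. In cycling T cell-gated cells the ratios were 0.897 (0.865 to 0.931) with vancomycin and 0.946 (0.894 to 1.0) in the control, with overlapping intervals. The subsets went opposite ways. With Cd8a or Cd8b1 and no Cd4 the ratio was 0.879 with vancomycin and 0.836 in the control. With Cd4 and no Cd8 it was 0.844 (0.797 to 0.894) and, over 12 control cells, 1.04 (0.912 to 1.18). Of the 4 marker classes with at least 30 cycling cells in the vancomycin library, plasma cell-gated cells leaned most to replication, at 1.60 (1.52 to 1.69). Type 1 dendritic cell-gated cells had 1.01 (0.959 to 1.07), and oligodendrocyte precursor cell-gated cells leaned most to mitosis, at 0.519 (0.479 to 0.561). These are ratios of summed UMIs, in which a few cells rich in UMIs can weigh heavily. Their intervals too leave out the spread between cells, so they do not show differences between classes. The same classes of the control held 2 cycling cells each, apart from T cell-gated cells.

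Single genes of the cycling cells also differed between these classes of the vancomycin library. Cenpf was at 630 CPM in oligodendrocyte precursor cell-gated, 244 CPM in T cell-gated, 157 CPM in type 1 dendritic cell-gated and 71.7 CPM in plasma cell-gated cycling cells. Ccnb1 was at 286 CPM in oligodendrocyte precursor cell-gated, 106 CPM in T cell-gated, 64.2 CPM in type 1 dendritic cell-gated and 61.4 CPM in plasma cell-gated cells. Pclaf was at 362 CPM in oligodendrocyte precursor cell-gated cells, 543 CPM in T cell-gated, 602 CPM in type 1 dendritic cell-gated and 537 CPM in plasma cell-gated cells. Mki67 was highest in T cell-gated cells, at 629 CPM, against 331 to 432 CPM in the other 3 classes. The median depth of these cycling cells was 13924.5 UMIs in oligodendrocyte precursor cell-gated and 14945 UMIs in T cell-gated cells. It was 22664 UMIs in type 1 dendritic cell-gated and 41911.5 UMIs in plasma cell-gated cells. The order of Cenpf and Ccnb1 ran against this depth, that of Pclaf and Mki67 did not, and the part of depth was not tested.

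Single cycling cells ranged from almost all replication RNA to almost all mitosis RNA. The replication genes' percent of the UMIs of both sets had a median of 53.2% over 335 vancomycin cells and 50.6% over 61 control cells with at least 10 such UMIs. In T cell-gated cells the medians were 55.8% with vancomycin and 48.1% in the control. By these medians the replication share was higher with vancomycin, whereas by the summed UMIs above it was lower, so the direction depended on the measure. Replication RNA was over 75% in 26.3% of vancomycin cells and 27.9% of control cells, and under 25% in 25.1% and 18%. Of 28 oligodendrocyte precursor cell-gated cells of the vancomycin library, 14 were under 25% and 10 over 75%, with a median of 25.4%. In that library the median was 64.1% over 41 plasma cell-gated cells and 61.3% over 51 type 1 dendritic cell-gated cells. These lay closer to the 55.8% of T cell-gated cells than the ratios of summed UMIs did.

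**Figure D5:**
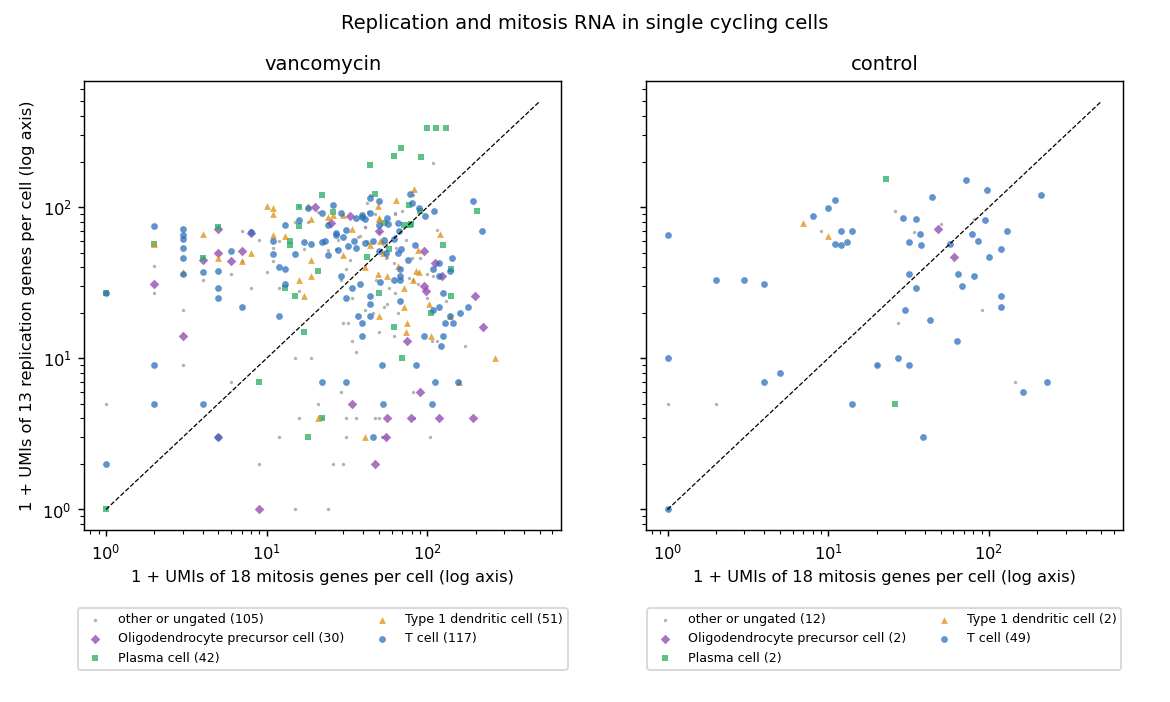
Summed UMIs of the 13 replication genes against those of the 18 mitosis genes outside the threshold in each cycling cell, plus 1 on log axes, for vancomycin (left, 345 cells) and control (right, 67 cells). Colours and shapes mark the marker class, and the dashed line marks equal sums; cells of both libraries lie on either side of it.

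Within the cycling cells, genes of a role moved together. As a description across cells, which share a library and differ in depth, the median Pearson correlation of log2(1 + UMIs per 10000) over pairs of replication genes was 0.47 with vancomycin and 0.47 in the control over 78 pairs. For pairs of mitosis genes it was 0.43 with vancomycin and 0.45 in the control over 153 pairs, and for a replication gene with a mitosis gene -0.10 and -0.14 over 234 pairs.

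The promoters of these sets also differ in their letters, and 5 RefSeq windows (build GRCm38.p6) are shown to illustrate this. Each runs from 250 bases before to 50 bases after the annotated start, 5′ to 3′ on the gene's strand. Capitals mark the CHR element TTTGAA, the CCAAT box CCAAT and the E2F motif (TTTCCCGC, TTTCGCGC, TTTGCCGC or TTTGGCGC), searched on both strands. The first 2 windows are those of Mki67 (chr7:135716330-135716629, minus strand), the member with the largest difference in cycling cells, and Plk1 (chr7:122159185-122159484, plus strand), both mitosis genes with a CHR. The window of Cdk1 (chr10:69352863-69353162, minus strand) holds all 3 motifs, and those of Mcm6 (chr1:128359656-128359955, minus strand) and Pclaf (chr9:65890073-65890372, plus strand) hold E2F and CCAAT motifs.
Mki67: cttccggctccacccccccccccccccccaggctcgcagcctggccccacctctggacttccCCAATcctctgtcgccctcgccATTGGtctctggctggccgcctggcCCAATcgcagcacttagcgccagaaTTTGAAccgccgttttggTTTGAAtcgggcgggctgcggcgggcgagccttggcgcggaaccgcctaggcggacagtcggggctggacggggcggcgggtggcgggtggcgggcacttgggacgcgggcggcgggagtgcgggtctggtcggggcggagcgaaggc
Plk1: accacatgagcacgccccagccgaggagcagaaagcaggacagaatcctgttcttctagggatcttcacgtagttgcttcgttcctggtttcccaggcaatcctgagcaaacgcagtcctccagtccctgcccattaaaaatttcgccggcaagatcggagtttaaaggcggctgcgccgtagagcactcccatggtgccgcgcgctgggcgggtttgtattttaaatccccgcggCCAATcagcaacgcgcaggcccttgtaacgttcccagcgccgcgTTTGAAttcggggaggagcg
Cdk1: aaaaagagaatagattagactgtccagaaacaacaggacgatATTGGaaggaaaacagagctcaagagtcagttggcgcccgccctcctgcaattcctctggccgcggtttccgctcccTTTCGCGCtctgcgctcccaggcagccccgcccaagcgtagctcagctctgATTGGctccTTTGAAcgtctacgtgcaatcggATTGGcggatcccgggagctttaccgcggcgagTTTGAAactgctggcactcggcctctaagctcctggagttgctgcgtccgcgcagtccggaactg
Mcm6: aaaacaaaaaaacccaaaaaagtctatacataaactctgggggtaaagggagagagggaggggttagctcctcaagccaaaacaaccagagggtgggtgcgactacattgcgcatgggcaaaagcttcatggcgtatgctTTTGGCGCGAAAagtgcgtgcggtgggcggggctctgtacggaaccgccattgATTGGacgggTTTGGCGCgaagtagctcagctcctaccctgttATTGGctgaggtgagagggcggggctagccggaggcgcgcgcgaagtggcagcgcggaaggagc
Pclaf: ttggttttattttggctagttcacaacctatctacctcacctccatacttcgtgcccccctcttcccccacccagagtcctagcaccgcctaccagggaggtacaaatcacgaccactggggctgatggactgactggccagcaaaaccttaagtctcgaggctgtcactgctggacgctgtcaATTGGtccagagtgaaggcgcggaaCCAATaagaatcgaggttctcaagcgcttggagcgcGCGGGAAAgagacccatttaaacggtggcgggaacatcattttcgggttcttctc
The CHR letters began at -116 and -98 from the start in Mki67, at 30 in Plk1 and at -71 and -15 in Cdk1. E2F letters began at -131 in Cdk1, at -110, -106 and -47 in Mcm6, where the first pair overlap, and at -5 in Pclaf.

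Windows were found for 18 of the 22 mitosis genes and 11 of the 13 replication genes, and Ccna2, Tpx2, Aurkb, Kif20a, Mcm4, Gins2 and Stmn1 had none. The CHR was in 14 of 19 mitosis windows (73.7%) and in 1 of 12 replication windows (8.33%), that of Mcm2, against 17.9% of all 32851 windows. E2F letters were in 1 mitosis window (5.26%), that of Cdk1, and in 5 replication windows (41.7%), those of Mcm3, Mcm5, Mcm6, Mcm7 and Pclaf, against 2.26% of all windows. The CCAAT box was in 89.5% of mitosis and 83.3% of replication windows, against 37.4% of all. In Mcm7 an E2F match and a CCAAT box share a base. A match is a string of letters and no evidence of a bound factor.

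Other genes of the cell cycle, from 4 lists of 89 genes, were set beside the members in cycling cells. Of 14 cyclins, kinases and inhibitors of G1, 0 were 2-fold or more higher, beside 5.86% of all genes in these cells, and 1 was 2-fold or more lower, beside 3.71%. Their median log2 ratio was 0.03, as over all genes (0.03), and 0.24 over the 12 measured in cycling T cell-gated cells, where it was -0.02 over all genes. The lower gene was Cdkn1b, the inhibitor p27, at 86.7 CPM with vancomycin and 186 CPM in the control (-1.02), and it was at 90.2 and 235 CPM in cycling T cell-gated cells (-1.29). The inhibitor Cdkn2d was at 103 CPM with vancomycin and 55.8 CPM in the control (0.78), and cyclin D1, Ccnd1, at 175 and 107 CPM (0.66). Cdkn1c had 52 UMIs with vancomycin and 0 in the control, and Cdk2 and Cdkn1a had log2 ratios of -0.47 and -0.43. In cycling T cell-gated cells Ccnd1 had 18 UMIs with vancomycin and 1 in the control, and Cdkn1c 6 and 0, too few to count as measured. Cdkn2d was at 115 and 68.9 CPM there. The part of the makeup of the cycling cells in these ratios was not tested.

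Of 14 RB, E2F and MuvB regulators, 0 were 2-fold or more higher, beside 5.86% of all genes, and 2 were 2-fold or more lower, beside 3.71%. Their median log2 ratio was -0.40, against 0.03 over all genes, and -0.17 in cycling T cell-gated cells, where none was 2-fold or more lower. The 2 lower genes in all cycling cells were Rbl2, the pocket protein p130 of the DREAM complex, at 52.7 CPM with vancomycin and 129 CPM in the control (-1.15), and the repressor E2f7, at 25.7 and 63.9 CPM (-1.05). Rbl1, the related p107, had a log2 ratio of -0.83, and the highest ratios were those of Lin37 (0.26), E2f8 (0.20) and E2f3 (0.10). In cycling T cell-gated cells Rbl2 was at 104 CPM with vancomycin and 158 CPM in the control (-0.56), and E2f7 at 37.8 and 70.2 CPM (-0.75).

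Of 25 genes of origin licensing and forks, 0 were 2-fold or more different, beside 5.86% of all genes higher and 3.71% lower. Their median log2 ratio was -0.14, against 0.03 over all genes, and it turned to 0.03 over the 24 measured in cycling T cell-gated cells. The lowest were Cdc6 (-0.82) and Orc1 (-0.81), which load the MCM helicase, and Prim1, a primase subunit (-0.67), and the highest were Gins3 (0.65), Orc6 (0.55) and Gins1 (0.43). Of 36 further mitotic genes, 0 were 2-fold or more higher, beside 5.86% of all genes, and 2 were 2-fold or more lower, beside 3.71%. Their median log2 ratio was -0.13, and in cycling T cell-gated cells it turned to 0.02, with none 2-fold or more lower. Cdc25b, a phosphatase that activates CDK1, was at 41.4 CPM with vancomycin and 121 CPM in the control (-1.34), and Mad2l1, a spindle checkpoint protein, at 64.7 and 140 CPM (-1.01). Both had a log2 ratio of -0.87 in cycling T cell-gated cells. Ect2, which acts in cytokinesis, had -0.72, and the highest log2 ratios were those of the histone variant gene H2afz (0.43), Anln (0.34) and Cks1b (0.34).

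Reads of 9 members may be shared with a protein-coding gene on the opposite strand that overlaps them in the annotation, since the sources used here do not give the strand setting of the counting. These are Ccna2, Ube2c, Kif20a, Nusap1, Prc1, Mcm7, Pclaf, Tk1 and Gins2.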

How the data were processed

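The assay was the 10x Genomics 5′ kit (v2), with a vancomycin library and a control library. The values deposited by the authors are raw counts of UMIs for each gene in each barcode. Per the file headers, Cell Ranger 7.2.0 wrote the vancomycin matrix and Cell Ranger 6.0.1 the control matrix. The submitters' processing notes name the build mm10 and the program Partek. The sources used here do not give the intron setting or the cell calling, and both could shift levels between the libraries if they differed. The defaults of the versions do differ, as 7.2.0 counts introns and 6.0.1 does not. A shift from this cannot be told apart from the treatment in any ratio of levels between the libraries.

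Cells were kept with 500 or more UMIs, 200 or more genes and a mitochondrial share of up to 20%, which left out 870 vancomycin and 164 control barcodes. Each cell was given the marker class, of 25, with the highest mean of log2(1 + UMIs per 10000) over its markers, where 3 or more markers had a UMI and the score exceeded that of the best other family by 0.5. Cells that passed no gate were 13.5% of the vancomycin and 19.0% of the control cells, with median depths of 3516.5 and 1413 UMIs. Doublets were scored with Scrublet and kept. Ratios have exact conditional Poisson intervals and shares exact Clopper-Pearson intervals, and the code was tested on simulated data. Genes with 50 or more UMIs over both libraries counted as measured. The text names all 36 members and, of each pathway list, every gene 2-fold different and the 3 highest and 3 lowest log2 ratios. Alternatives were thresholds of 3 and 10 UMIs, pseudocounts of 1 and 50 CPM, edgeR TMM and DESeq2 size factors, equal weights of cells or classes, thinning, gate margins of 0 and 1 and filters on cells. The members and lists were chosen with earlier results of these data known. Gene coordinates are from GENCODE on GRCm38 (mm10). Python 3.11.15 was used with scanpy 1.11.5, scipy 1.17.1, pandas 2.3.3, numpy 2.4.6 and matplotlib 3.10.9, and R 4.3.3 with edgeR 4.0.16 and DESeq2 1.42.0.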

Additional observations from a re-analysis of the deposited data

How the results depend on the processing

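No paired analysis was possible because each group is 1 library with no second replicate number. The cycling share with vancomycin moved to 2.84% at a threshold of 3 UMIs, 1.78% at 10 UMIs, 0.728% after thinning to 2000 UMIs, 2.44% when the 18 other mitosis genes made the call, 2.95% without oligodendrocyte-gated cells and 1.92% without cells of mixed markers. In the control it moved to 2.51% at 3 UMIs, 1.0% after thinning, 2.24% with the 18 other genes and 2.16% after thinning with a threshold of 2 UMIs, an alternative chosen after seeing the data, as was leaving out mixed cells. The T cell-gated part of the cycling cells became 51.5% with vancomycin after thinning, against 71.9% in the control, and 39.6% without mixed cells, against 75% in the control, and the type 1 dendritic cell-gated part 10.9% with vancomycin and 0% in the control after thinning. Replication over mitosis UMIs with vancomycin became 1.01 at 3 UMIs and 0.898 at 10 UMIs, and in the control 0.935 at 10 UMIs. The count of members at least 2-fold higher over all cells became 0 with equal classes, and the count lower became 4 with 1 CPM added, 0 with 50 CPM, 0 with equal cells and 0 with equal classes. In cycling cells the count lower became 0 in T cell-gated cells alone. Stmn1 over all cells reversed to a log2 ratio of -0.24 with equal classes, a setting that leaves out oligodendrocyte-gated cells, as the control had none. For the other values that moved, the cause was not tested. Other results moved less than their interval in 90 summary values and 605 single-gene values, and beyond it in 23 and 78. Control classes of under 50 cells were limited by the number of cells, and members under 50 UMIs by depth.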
